A study of Arabidopsis thaliana with 10 samples.

Results

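A group of 92 nuclear genes of Arabidopsis thaliana was taken for having much less transcript signal in isolated ovules than in whole unpollinated pistils, and for staying close to the unpollinated level after pollination. The values that chose them were group means of log2(intensity + 16): ovules lay at least 2 below unpollinated pistils, a 4-fold difference, and pistils harvested 0.5, 3.5 or 8 hours past pollination (written HAP) each lay within 0.7 of them, in either direction. Fold changes are given on this scale, which understates those of dim genes. Of 22745 probe sets (groups of short probes that read 1 transcript) with values, 13363 named 1 nuclear gene and were eligible. Of these 206 met the ovule limit and 92, each a different gene, also met the limits at all 3 times. The other 114 left the band at some time: 81 went only below it, 28 only above it and 5 did both. RCA, PSAN and PSAE-1 were left out by name, and a further 153 probe sets with the same behaviour carried no single gene name.

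The groups were unfertilised ovules, unpollinated pistils and pollinated pistils at the 3 times, with 2 arrays each, 10 in all. All plants were of ecotype Columbia. Buds had their anthers removed 24 hours ahead of pollination, and unpollinated pistils were the zero-hour sample. Each pistil replicate pooled 20 pistils from at least 10 plants. Each ovule replicate pooled some 1500 ovules picked by the funiculus, the ovule's stalk, from 50 unpollinated pistils of about 30 plants. Whole pistils include their ovules and, after pollination, pollen and pollen tubes. In such bulk samples fewer cells of a type and less RNA per cell cannot be told apart.

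A pistil consists of stigma, style and ovary. The ovary wall (the valves) is a green, photosynthetic, cuticle-covered tissue with veins, the septum carries the transmitting tract through which pollen tubes grow, and the ovules attach to the placenta inside. Ovules are mostly integument and nucellus around the embryo sac. A gene expressed in valves, style, stigma, septum or vasculature and little in ovules is therefore brighter in whole pistils than in isolated ovules. The arrays do not separate these pistil tissues from each other.

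Array medians over all probe sets lay between 251.5 and 272.2. Unpollinated replicate 2 had a log2 ratio of 3' to 5' signal of 2.96 at 1 pair of actin controls, against 1.93 to 2.55 on the other 9 arrays, while another actin pair gave it 3.33, the lowest of 3.33 to 3.79. The GAPDH pair gave it 2.71, the second highest of 2.26 to 2.74, and gave unpollinated replicate 1 2.35. Intensities up to 136.5, the 95th percentile of 27 bacterial control probe sets, are called background level here. The ovule preparations carried their own markers: 7 of 16 ovule and embryo sac genes were measured under a name, and their summed intensity was 6945 and 7417 in ovules, against 2314 and 2253 in unpollinated pistils. By limma, a linear model fitted over all probe sets, with Benjamini-Hochberg adjustment and a threshold of 0.05, 5 of the 7 were higher in ovules and 0 lower, where 29.6% and 22% of all probe sets were called in these directions. BAN, an enzyme of proanthocyanidin synthesis in the inner integument, averaged 2682 in ovules and 319.6 in unpollinated pistils.

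The part of the pistil that expresses the members could not be read from the marker lists. Of 8 measured stigma, style and transmitting tract genes and 3 measured carpel wall and patterning genes, 0 were members, and AT3G12000, an S-locus related gene of the stigma, was the 1 that met the ovule limit (22.6 in ovules, against 150.2 in unpollinated pistils). It left the band at 0.5 HAP and at 8 HAP, with log2 differences from unpollinated pistils of 1.54 and -2.19. By limma 2 of the 8 were higher and 4 lower in ovules. Their summed intensity was 4791 and 4804 in ovules, against 4844 and 4493 in unpollinated pistils, with opposed members. ARPN, a plantacyanin, averaged 2541 in ovules and 1247 in unpollinated pistils. The bHLH gene CES averaged 860.0 in ovules and 1943 in unpollinated pistils. The lists for cuticle and wax, epidermis and stomata, vascular tissue, phenylpropanoids and lignin, glucosinolates, and terpenes and jasmonate also held 0 members, with between 1 and 3 genes measured in each, and no aquaporin of that list was measured under a name. The members are therefore described by their own gene families.

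The members were lower in ovules by a median log2 difference of -2.59, with quartiles of -2.94 and -2.19 and a lowest value of -3.94. The median over all probe sets was 0.04. For each of the 92 members both ovule arrays lay below all 8 pistil arrays, an order that the limits of the rule largely set. By limma 92 of 92 were called lower in ovules, where 22% of all probe sets were; the rule used this contrast. Ovules did not lack all of these transcripts by this measure: 46 members had an ovule mean at or below the background level and 46 had one above it. For a member at background in ovules the fold has no exact size, and a lower bound is given, computed with its ovule value raised to the background level. By the fold, or by this bound where there is one, 16 members were at least 8-fold lower, 7 of them by the bound. The median log2 difference of the 92 is -2.29 with such members at their bound. Every member had an unpollinated mean above that level. Intensities of different probe sets are not set against each other as amounts of transcript.

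**Figure D1:**
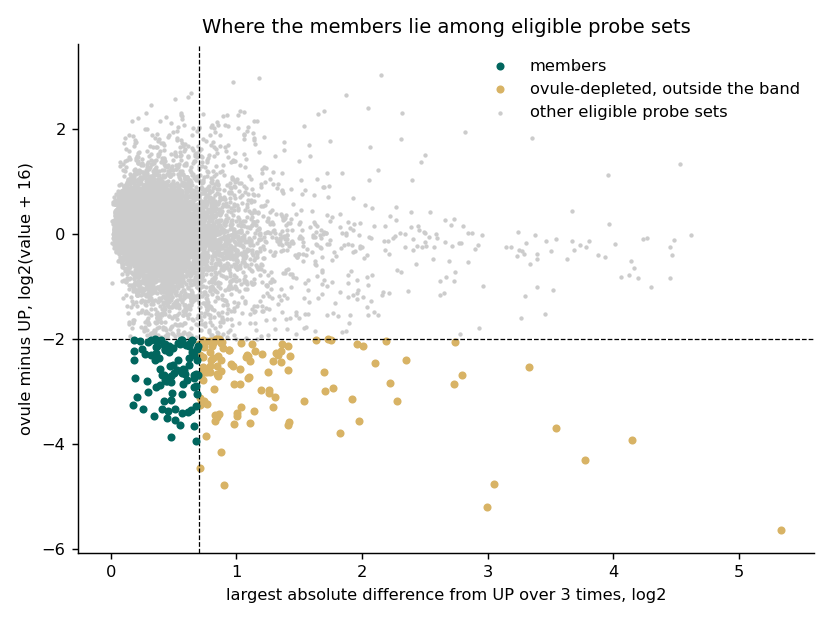
Each point is 1 eligible probe set, plotted by its largest absolute log2 difference from unpollinated pistils (UP) over 0.5, 3.5 and 8 HAP (x axis) and by its ovule minus UP log2 difference (y axis); dashed lines are the limits of 0.7 and -2. The 92 members fill the lower left field down to -3.94, beside 114 ovule-depleted probe sets outside the band.

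With 16 added before the logarithm the lowest ovule difference was that of AT4G23670, of the Bet v 1 and major latex protein family of small ligand-binding proteins. With 1 added it was that of BGLU46, a beta-glucosidase described below, at -6.13 against -4.04 for AT4G23670. AT4G23670 read 180.2 and 204 in ovules, against 3247 and 3095 in unpollinated pistils, a 15.3-fold difference (log2 -3.94). After pollination it read 2304 and 2126 at 0.5 HAP, 2212 and 2225 at 3.5 HAP, then 2009.5 and 1934 at 8 HAP, below both unpollinated arrays each time, and its log2 differences of -0.52, -0.51 and -0.68 at 0.5, 3.5 and 8 HAP came close to the lower limit. AT1G09310, which encodes a protein of the DUF538 family, read 443 and 326 in ovules, against 5923 and 5614 in unpollinated pistils (14.6-fold, log2 -3.87). Its pollinated values, 7375 and 7489.7 at 0.5 HAP, 8441 and 7663 at 3.5 HAP, then 7389 and 7651 at 8 HAP, all lay above the unpollinated ones, so this gene stayed in the band from above.

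Transporters were 3 of the 12 members named for the lowest ovule difference among those brighter in unpollinated pistils than the array median. AT5G17700, a MATE-type efflux carrier, read 119.9 and 101 in ovules, against 1629.5 and 1504 in unpollinated pistils, at least 10.4-fold lower. It read 1337 and 1443 at 0.5 HAP, 1711 and 1611 at 3.5 HAP, then 2476 and 2506 at 8 HAP, so only the last pair exceeded both unpollinated arrays. AT3G53960, a carrier of the major facilitator superfamily, read 105 and 84.7 in ovules, against 1209.6 and 1247 in unpollinated pistils, at least 8.16-fold lower, then 1357 and 1265 at 0.5 HAP, 1572 and 1799.7 at 3.5 HAP, then 1330.1 and 1211 at 8 HAP. All arrays of 0.5 and 3.5 HAP were above the unpollinated pair, and of the 8 HAP arrays 1 was above the pair and 1 within it. AT2G40460, of the same superfamily, read 89.5 and 112 in ovules, against 1239.7 and 1298 in unpollinated pistils, at least 8.43-fold lower, with log2 differences after pollination of -0.18, 0.03 and -0.34 at 0.5, 3.5 and 8 HAP.

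AT1G70820, related to phosphoglucomutases that interconvert glucose phosphates, read 229 and 196 in ovules, against 2379 and 2423 in unpollinated pistils (10.6-fold). Its pollinated values were 2402 and 2459.5 at 0.5 HAP, 1904 and 1911 at 3.5 HAP, then 1589 and 1640.1 at 8 HAP: level with the unpollinated pair at first, below it at the later times. AT5G44680, of a DNA glycosylase family, read 137 and 92.2 in ovules, against 1229 and 1432 in unpollinated pistils, at least 8.79-fold lower. It was below both unpollinated arrays at every later time, with log2 differences of -0.62, -0.48 and -0.28 at 0.5, 3.5 and 8 HAP.

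AT5G45950, a GDSL lipase, read 169 and 166 in ovules, against 1985 and 1792 in unpollinated pistils (10.4-fold), then 1325 and 1419 at 0.5 HAP, 1585 and 1461 at 3.5 HAP, then 1669 and 1717 at 8 HAP. All 6 pollinated arrays were below the unpollinated pair. AT2G31790, a UDP-glycosyltransferase, read 175 and 196 in ovules, against 2229.9 and 1836 in unpollinated pistils (10.1-fold), with log2 differences of -0.64, -0.47 and -0.56 at 0.5, 3.5 and 8 HAP. AT3G19550 read 176 and 114 in ovules, against 1465 and 2245 in unpollinated pistils (11.6-fold). Its unpollinated arrays were far apart, and the pollinated ones, 1384 and 1409 at 0.5 HAP, 1399 and 1149 at 3.5 HAP, then 1867 and 1652 at 8 HAP, fell below or between them.

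GH3.17 encodes an enzyme that joins auxin to amino acids, which removes free auxin. It read 69.8 and 69.2 in ovules, against 871 and 814 in unpollinated pistils, at least 5.63-fold lower, then 907 and 843 at 0.5 HAP, 1097 and 1120.1 at 3.5 HAP, then 1146 and 1097 at 8 HAP. The 3.5 and 8 HAP arrays were all above the unpollinated pair. AT3G47250, of the DUF247 family, read 41.5 and 39.7 in ovules, against 418 and 736 in unpollinated pistils, at least 3.75-fold lower. The 6 pollinated arrays of AT3G47250 lay between its unpollinated arrays.

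**Figure D2:**
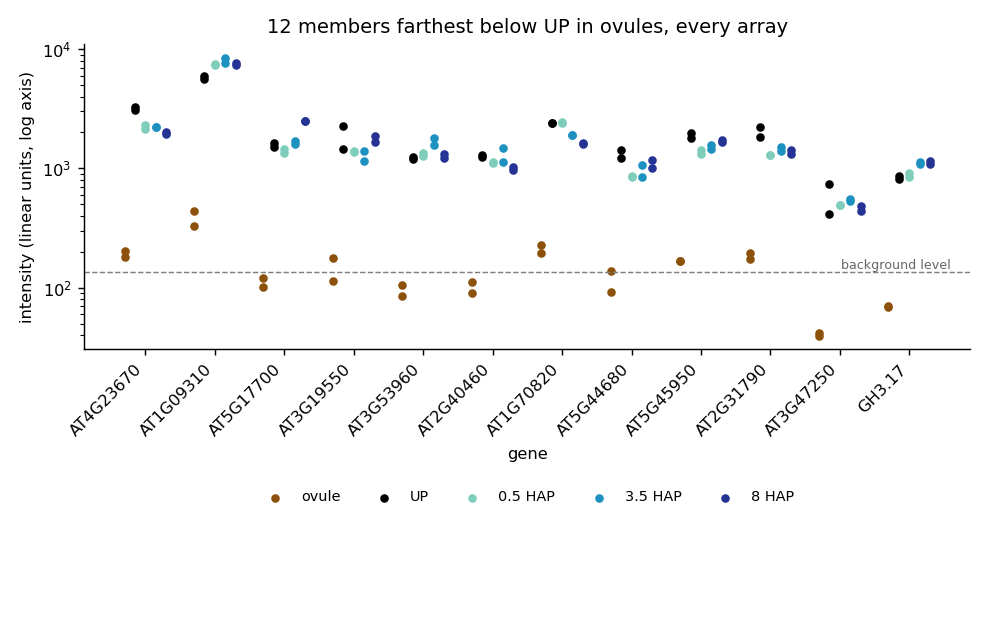
Intensity (log axis) of every array for the 12 members with the lowest ovule minus unpollinated pistil (UP) difference among those above the median intensity of UP arrays; each point is 1 array, 2 per group, and the dashed line is the background level of 136.5. The ovule points lie below all pistil points for each gene, and the pistil groups overlap or lie close together.

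Some members had bright probe sets in every pistil group. AT5G38980 read 1212 and 916 in ovules, against 4866 and 4889 in unpollinated pistils, so this gene kept a signal far above the background level in ovules. AT5G22580, with a stress-responsive A/B barrel domain, read 729 and 486 in ovules, against 3529 and 4167 in unpollinated pistils; after pollination it read 4973 and 5715 at 0.5 HAP, 5451 and 5304 at 3.5 HAP, then 5383 and 5537 at 8 HAP, all 6 above the unpollinated pair. AT4G16190, a papain-like cysteine protease, read 709 and 632 in ovules, against 4335 and 3408 in unpollinated pistils. Its pollinated values were 4058 and 4078 at 0.5 HAP, 3869 and 3785 at 3.5 HAP, then 2496 and 2489 at 8 HAP; the 8 HAP arrays alone lay below both unpollinated ones.

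The steadiest members, among those brighter in unpollinated pistils than the array median, came from several families. AT1G48750, a lipid transfer protein, had the smallest departure: its largest log2 difference from unpollinated pistils at any time was 0.18. It read 439 and 387 in ovules, against 4269 and 3888 in unpollinated pistils (9.55-fold), then 3729.5 and 3536 at 0.5 HAP, 4917 and 4331 at 3.5 HAP, then 3716 and 3601 at 8 HAP. AT5G27930, a protein phosphatase 2C, had a largest difference of 0.18 and read 297 and 269 in ovules, against 1555 and 1554 in unpollinated pistils. AT2G46100 (0.19), of the nuclear transport factor 2 family, AT3G10080 (0.19), a cupin of the germin-like group, AT2G03550 (0.21), a carboxylesterase, and AT5G38980 (0.25) followed in that log2 measure. The measure does not cover steps between pollinated times. There limma called AT1G48750 higher at 3.5 than at 0.5 HAP (log2 0.34, adjusted p = 0.0273) and lower at 8 HAP (-0.33, adjusted p = 0.0165). AT5G27930 was called lower at 3.5 HAP (-0.31, adjusted p = 0.0242 by limma) and AT5G38980 at 8 HAP (-0.37, adjusted p = 0.0187 by limma). AT2G46100, AT3G10080 and AT2G03550 passed in neither step. In all, 12 members stayed within 0.3 of unpollinated pistils at all 3 times and 24 were over 0.6 away at some time.

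By known or annotated role 53 members were sorted into 7 classes, written after the members were known; 39 were left without a class. Cell wall enzymes and their inhibitors made up 9. Pectins are the gel-forming polymers of primary walls, and enzymes that cut them loosen the wall. AT1G04680, a pectate lyase, read 348 and 269 in ovules, against 2097 and 2052 in unpollinated pistils (6.49-fold), then 2367 and 2378 at 0.5 HAP, 2308 and 2186 at 3.5 HAP, then 2824 and 2983 at 8 HAP, each above the unpollinated pair. AT3G27400, also a pectate lyase, read 92.3 and 81.3 in ovules, against 753 and 636 in unpollinated pistils, at least 4.64-fold lower, with pollinated log2 differences of 0.14, 0.43 and 0.61 at 0.5, 3.5 and 8 HAP. The polygalacturonase AT3G15720 read 94.7 and 99.8 in ovules, against 899 and 776 in unpollinated pistils, at least 5.58-fold lower.

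The pectin methylesterase inhibitor family had AT5G62360, at 468 and 617 in ovules, against 2425 and 2053 in unpollinated pistils, and AT2G01610, at 134 and 139 in ovules, against 980.3 and 715 in unpollinated pistils. Their courses differed in order: AT5G62360 had its highest pistil mean at 0.5 HAP (3501), AT2G01610 its lowest (589). Of 2 beta-glucosidases, BGLU44 read 749 and 788 in ovules, against 4613 and 3705 in unpollinated pistils (5.29-fold). BGLU46, which can release monolignols, the units of lignin, from their glucosides, read 3.71 and 0.959 in ovules, against 228 and 195 in unpollinated pistils; its ovule signal was near 0, and the bound set by the background level is 1.49-fold. AT4G01700, a chitinase, and AT3G21770, a class III peroxidase, were at least 2.48-fold and at least 3.47-fold lower.

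Lipid and surface genes made up 11. Aerial epidermis is sealed by a cuticle of cutin and wax, whose monomers are made from fatty acids and moved through the wall. SHN3, of the SHINE clade of AP2/ERF factors that promote cuticle formation, read 197 and 148 in ovules, against 805 and 998 in unpollinated pistils (4.87-fold), then 1042 and 1140.3 at 0.5 HAP, 1178 and 992 at 3.5 HAP, then 989.8 and 862 at 8 HAP, around and above the unpollinated pair. There were 4 GDSL lipases, a family in which some members polymerise cutin: AT5G45950 above, AT1G75900, AT4G28780 and AT5G55050. AT1G75900 read 337 and 503 in ovules, against 2888 and 2281 in unpollinated pistils (6.03-fold), and AT4G28780 read 56.9 and 53.5 in ovules, against 339 and 309 in unpollinated pistils. AT5G55050 read 215 and 153 in ovules, against 779.5 and 788 in unpollinated pistils, and had the widest step of the family, described with the time course below. Beside AT1G48750, a second lipid transfer protein, AT2G10940, read 573 and 964 in ovules, against 4517 and 3067 in unpollinated pistils. The lipase AT2G42690, the acyltransferase AT3G50280 and the monoacylglycerol lipase relative AT2G39420 had log2 differences in ovules of -2.69, -2.68 and -2.18. The lecithin:cholesterol acyltransferase relative AT1G27480 was at least 8.82-fold lower. The measured genes of the cuticle and wax list were 2 of 27. WSD1, a wax ester synthase, averaged 308 in ovules and 986 in unpollinated pistils, short of the ovule limit, and was above the band at 8 HAP (log2 0.90).

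Transporters made up 6, and all 6 were at or below the background level in ovules. Beside the MATE and major facilitator carriers above, SFP1, of the sugar porter family, read 129.7 and 109 in ovules, against 1096 and 839 in unpollinated pistils, at least 6.4-fold lower. AT1G68600, of the aluminium-activated malate transporter family of anion channels, read 102 and 103 in ovules, against 831 and 561 in unpollinated pistils, at least 4.58-fold lower. AT1G25530, an amino acid transporter, read 127 and 122 in ovules, against 506 and 606 in unpollinated pistils, at least 3.74-fold lower. The median difference from unpollinated pistils in this class was -0.15 at 0.5 HAP, 0.38 at 3.5 HAP and 0.35 at 8 HAP.

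Enzymes of conjugation and specialised metabolism made up 10. UGT71B1, a UDP-glycosyltransferase that attaches glucose to small molecules, read 141 and 117 in ovules, against 1427 and 1444 in unpollinated pistils, at least 9.38-fold lower, then 1703 and 1630.3 at 0.5 HAP, 1982 and 2134 at 3.5 HAP, then 1739.9 and 1713 at 8 HAP, each above the unpollinated pair. AT3G21790, of the same enzyme family, read 143 and 149 in ovules, against 1161 and 1075 in unpollinated pistils (6.99-fold). Short-chain reductases related to tropinone reductase gave 3 members: AT2G29310 (92.1 and 77.8 in ovules, against 834 and 934 in unpollinated pistils), AT1G07440 (log2 -2.06) and AT1G07450 (at least 5.55-fold lower). AT2G34810, a berberine bridge enzyme-like oxidoreductase, and the sulfotransferase AT2G03750 had log2 differences in ovules of -2.59 and -2.10. The terpene synthase relative AT3G14520 was at least 1.47-fold lower. The class median was -0.50 at 8 HAP.

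Chloroplast and photorespiration genes made up 6. HPR, the peroxisomal hydroxypyruvate reductase, and AT1G32470, an H protein of the glycine cleavage system, act in photorespiration, which recycles the product of Rubisco's oxygenase reaction. HPR read 435 and 419 in ovules, against 3959 and 2365 in unpollinated pistils (6.95-fold), then 3168 and 3324 at 0.5 HAP, 3542 and 3361 at 3.5 HAP, then 2291 and 2196 at 8 HAP. AT1G32470 read 427 and 329 in ovules, against 2895 and 2764 in unpollinated pistils (7.28-fold), then 3670.4 and 3611 at 0.5 HAP, 3890.2 and 3571 at 3.5 HAP, then 2792 and 2659 at 8 HAP. Both were lower on the 8 HAP arrays than on any array of 0.5 or 3.5 HAP. The chloroplast NDH complex carries electrons around photosystem I. Its subunit gene NdhN read 200.4 and 186 in ovules, against 1395 and 1261 in unpollinated pistils (6.43-fold). PIFI, needed for NDH-dependent electron flow, read 344 and 256 in ovules, against 2201 and 2144 in unpollinated pistils, and CRR42, needed for the complex to accumulate, read 66.9 and 65.0 in ovules, against 325 and 364 in unpollinated pistils, at least 2.36-fold lower. AT5G55220, a trigger factor-type chaperone, read 145 and 179 in ovules, against 1019.5 and 628 in unpollinated pistils.

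In comparison, 7 of 55 genes of the photosynthesis list, which holds light-harvesting, photosystem, Calvin cycle and chlorophyll synthesis genes, were measured under a name, and 0 were members. By limma 7 of 7 were lower in ovules, at a median log2 difference of -1.03, short of the limit of -2. The list does not hold RCA, PSAN and PSAE-1, photosynthesis genes left out of the members by name, so these counts do not cover them. The values of the rule were met by 3 probe sets left out by name or genome. PRK, phosphoribulokinase of the Calvin cycle, averaged 1442 in ovules and 4458 in unpollinated pistils (log2 -1.62). The light-harvesting gene LHCB4.1 averaged 4264 and 8659.8 in the same groups (log2 -1.03).

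Regulators made up 7. AGL42, a MADS-box factor whose overexpression delays floral senescence and abscission, read 19.1 and 20.8 in ovules, against 135 and 156 in unpollinated pistils. The unpollinated arrays lie just below and just above the background level, and the bound on the fold is only 1.06. AT3G05640, a protein phosphatase 2C like AT5G27930, read 133 and 97.3 in ovules, against 1072 and 1437 in unpollinated pistils, at least 8.25-fold lower. AT1G07050, with a CCT motif, read 81.5 and 50.2 in ovules, against 485 and 485 in unpollinated pistils, and the bHLH factor AT4G01460 read 43.5 and 39.9 in ovules, against 229 and 234 in unpollinated pistils. The calmodulin-like AT1G21550 was at least 1.6-fold lower, and the RING finger protein AT2G15580 had a log2 difference of -2.14. Among 4 hydrolases of proteins and esters, the aspartic proteases AT2G03200 and AT2G42980 were at least 2.69-fold and at least 1.54-fold lower.

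The 39 members without a class had a median ovule difference of -2.65, and 18 of them were at or below the background level in ovules. MT1C, a metallothionein, a small metal-binding protein, was the 1 among them with a gene symbol beyond the locus code. It read 162 and 256 in ovules, against 1639 and 1289.8 in unpollinated pistils (6.68-fold), then 1071 and 1074 at 0.5 HAP, 1166 and 1101 at 3.5 HAP, then 943 and 881 at 8 HAP. All 6 pollinated arrays were below the unpollinated pair. Of the 92 members 80 had only a locus code as a name, and for these a role is given from the gene family alone.

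After pollination the members moved within the band. Their median log2 difference from unpollinated pistils was -0.12 at 0.5 HAP, -0.02 at 3.5 HAP and -0.26 at 8 HAP, against -0.02, -0.07 and -0.01 over all probe sets. For the 114 ovule-depleted probe sets that the band kept out, these medians were -0.40, -0.28 and -0.83. At 0.5 HAP 39 members were above and 53 below the unpollinated mean, at 3.5 HAP 44 and 48, and at 8 HAP 30 and 62. Over the 4 pistil groups 46 members had their lowest mean at 8 HAP and 17 their highest; 15 had their lowest and 30 their highest in unpollinated pistils. The range over the 4 pistil means was 0.21 to 1.25 on the log2 scale, with a median of 0.54. The band bounds the size of a difference and does not exclude a call: at 8 HAP 16 members were called higher and 36 lower than unpollinated pistils by limma, where 19.7% and 18.8% of all probe sets were. At 0.5 HAP it was 12 and 21 members, where 15.5% and 14.7% of all probe sets were, and at 3.5 HAP 16 and 18, where 12.9% and 17% were. The rule used these contrasts, and all 3 share the unpollinated arrays.

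**Figure D3:**
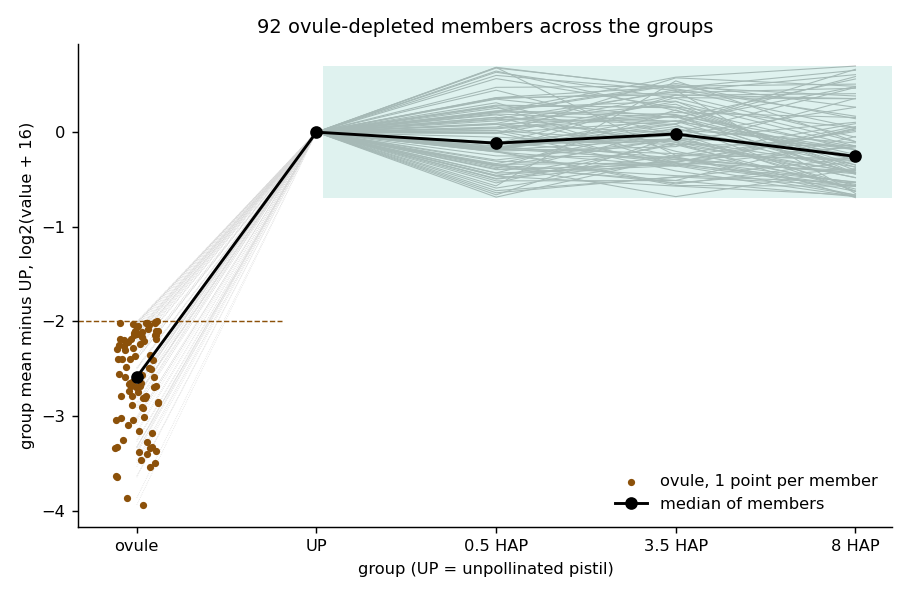
Group mean minus unpollinated pistil (UP) of log2(value + 16) for each of the 92 members (grey lines; brown points for ovules) and their median (black), with ovules and UP on the left and the 3 times after pollination on the right. The shaded band is the limit of 0.7 in either direction, and the median is -0.26 at 8 HAP and -2.59 in ovules.

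Steps between pollinated times were not used by the rule, though it limits them to 1.4. In the step from 0.5 to 3.5 HAP limma called 12 members higher and 9 lower at 3.5 HAP, where 5.19% and 9% of all probe sets were called in these directions. AT5G55050, the GDSL lipase, rose most. It read 1169 and 1129 at 3.5 HAP, against 505 and 543 at 0.5 HAP, with no overlap (log2 1.11, SE 0.13, limma adjusted p = 0.000261). At 8 HAP it read 751 and 711, just below its unpollinated level.

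AT4G01700, the chitinase, rose to 425 and 435 at 3.5 HAP, against 264 and 284 at 0.5 HAP (log2 0.62, SE 0.12, limma adjusted p = 0.00762). AT2G04039 and SFP1 rose by log2 0.62 and 0.59 (adjusted p = 0.00157 and 0.0199 by limma). The lowest steps were of AT1G07450, at 657 and 651 against 956 and 1071 (log2 -0.62, SE 0.10, limma adjusted p = 0.00263), BGLU46 (log2 -0.51, SE 0.13, limma adjusted p = 0.0243), AT2G39420 (log2 -0.47, SE 0.08, limma adjusted p = 0.00357) and AT3G15810 (log2 -0.45, SE 0.08, limma adjusted p = 0.00531). Single arrays decided some of these calls. AT3G15810 missed the threshold without replicate 1 of 0.5 HAP or of 3.5 HAP, AT4G01700 without replicate 1 of 0.5 HAP or replicate 2 of 3.5 HAP, and SFP1 without either 0.5 HAP array or replicate 2 of 3.5 HAP. BGLU46 missed it without either 0.5 HAP array, without replicate 1 of 3.5 HAP or with 1 added before the logarithm in place of 16. Over all alternatives the adjusted p by limma reached 0.078 for AT3G15810, 0.0827 for AT4G01700, 0.158 for SFP1 and 0.263 for BGLU46. Fewer members passed without any 1 array of 0.5 or 3.5 HAP, as did fewer of all probe sets. More of both passed without either unpollinated array. The members' median step was 0.05 with all arrays. It was 0.05 and 0.07 without replicates 1 and 2 of 0.5 HAP, and 0.02 and 0.06 without those of 3.5 HAP. Over all probe sets the median step was -0.03 each time. AT1G67870 had the lowest log2 difference of all members, -0.93, but its 0.5 HAP arrays read 1832 and 1265 and it did not pass (adjusted p = 0.12 by limma).

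In the step from 3.5 to 8 HAP 9 members were called higher and 33 lower at 8 HAP, where 18.9% and 12.4% of all probe sets were called. The median of the members was -0.21 and that of all probe sets 0.05. The 114 ovule-depleted probe sets outside the band had a median of -0.46 in this step. Of these 85 were outside the band at 8 HAP. The rule used the 8 HAP values to set them apart, so they cannot show whether the fall was particular to the members. All 6 chloroplast and photorespiration members were called lower, with HPR at log2 -0.62, SE 0.17, limma adjusted p = 0.0194 and AT1G32470 at log2 -0.45, SE 0.11, limma adjusted p = 0.00878. NdhN, PIFI, CRR42 and AT5G55220 had log2 differences of -0.33, -0.41, -0.58 and -0.60. The 7 measured genes of the photosynthesis list, which are no members, were also called lower, 7 of 7. Of 7 regulators 5 were called lower. Without any 1 array of 3.5 or 8 HAP fewer members passed, also in these 2 classes, as did fewer of all probe sets. The members' median was -0.20 without either replicate of 3.5 HAP, and -0.22 and -0.12 without replicates 1 and 2 of 8 HAP. Over all probe sets it was 0.05 without either replicate of 3.5 HAP, and 0.05 and 0.06 without those of 8 HAP. All 6 chloroplast and photorespiration values were below 0 each time. Of the 7 regulator values 6 were below 0 without replicate 1 of 8 HAP, and 7 without each of the others.

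The farthest fall was that of AT2G15960, at 782 and 812 at 8 HAP, against 1617 and 1817 at 3.5 HAP (log2 -1.09, SE 0.17, limma adjusted p = 0.00096); its 0.5 and 3.5 HAP arrays lay above the unpollinated pair of 1363 and 1161 and its 8 HAP arrays below it. The bHLH gene AT4G01460 fell to 177 and 158 at 8 HAP, against 293 and 297 at 3.5 HAP (log2 -0.76, SE 0.08, limma adjusted p = 0.000125). AT2G36145 and AT1G75460 fell by 0.71 and 0.70 on the log2 scale. In the other direction AT5G17700, the MATE carrier, rose to 2476 and 2506 at 8 HAP, against 1711 and 1611 at 3.5 HAP (log2 0.58, SE 0.09, limma adjusted p = 0.00115). The GDSL lipases AT4G28780 (log2 0.51, SE 0.13, limma adjusted p = 0.0132) and AT1G75900 (log2 0.50, SE 0.16, limma adjusted p = 0.0397) and AT1G11850 (log2 0.48, SE 0.12, limma adjusted p = 0.0133) also rose. AT4G28780 missed the threshold without replicate 2 of 3.5 HAP or of 8 HAP, at an adjusted p by limma up to 0.123. AT1G11850 missed it without any 1 of the 4 arrays of this step (up to 0.0759), and AT1G75900 also without either 0.5 HAP array or with the replicate number as a block (up to 0.241).

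**Figure D4:**
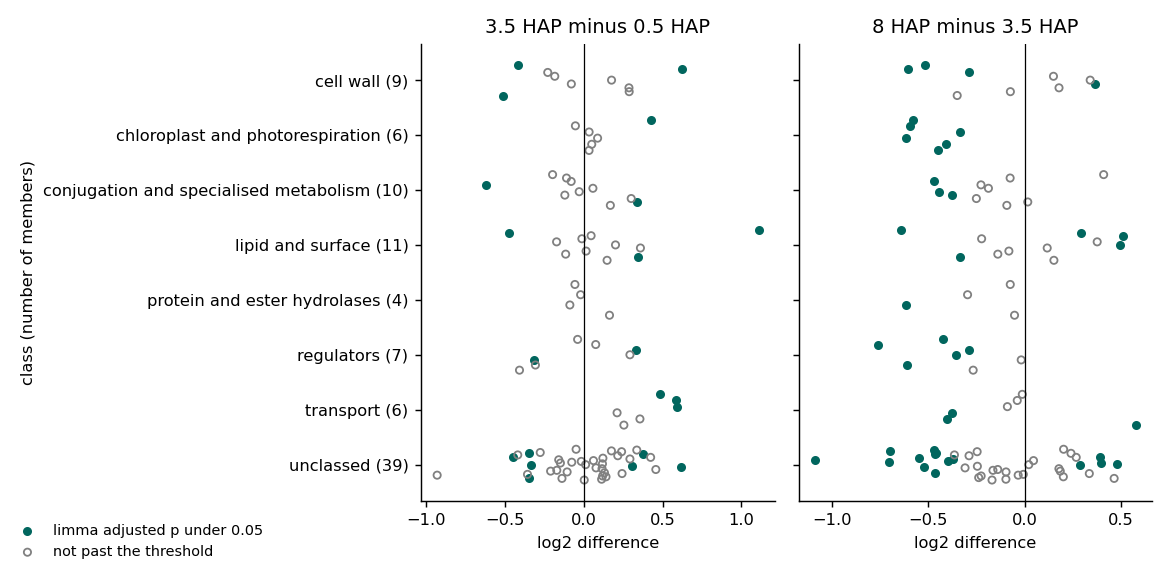
Log2 difference of each member in the steps 3.5 HAP minus 0.5 HAP and 8 HAP minus 3.5 HAP, by class with the number of members; filled points passed limma at an adjusted p of 0.05 and open points did not. In the second step 33 members were called lower and 9 higher, and all 6 chloroplast and photorespiration members lay on the lower side.

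Pollen signal was higher at each later time: the summed intensity of 7 measured pollen genes of 13 listed was 779 and 817 in ovules, against 727 and 719.8 in unpollinated pistils; after pollination it was 1306 and 1225 at 0.5 HAP, 1668 and 1872 at 3.5 HAP, then 2056 and 2082 at 8 HAP. The lowest of them, AT2G21480 and ACT12, averaged at most 54.8 and 55.8 in any group, within the background level. The part of pollen RNA in the members' differences was not tested.

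Members lay on every chromosome, with 29, 20, 20, 5 and 18 on chromosomes 1 to 5, against 3451, 2199, 2745, 1961 and 3007 eligible probe sets. As shares these were 31.5%, 21.7%, 21.7%, 5.43% and 19.6% of members, against 25.8%, 16.5%, 20.5%, 14.7% and 22.5% of eligible probe sets. Chromosome 4 thus held the smallest share of members for its size, a difference that was not tested. In the TAIR10.1 gene order 5 pairs of neighbouring members had at most 4 protein-coding genes between them. The reductase genes AT1G07440 and AT1G07450 were direct neighbours. As related sequences they may share probe signal, which was not tested. UGT71B1, the peroxidase AT3G21770 and AT3G21790 lay in a row with 1 gene between each. UGT71B6, a relative within this row, averaged 47.0 in ovules and 51.0 in unpollinated pistils. UGT71B8, next to AT3G21790, averaged 58.8 and 64.8 in these groups, so both were within the background level while the members beside them were far above it in pistils. PIFI lay 2 genes from AT3G15810, and AT1G32470 lay 4 genes from AT1G32520, whose ovule mean was 126 and unpollinated mean 558.

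Replicates set a limit on who belongs. Of the 92 members 48 were chosen whichever array was left out, and 44 dropped out without at least 1 of the 10. The losses came mostly with the unpollinated arrays: without replicate 1 of them 68 of the 92 stayed, and without replicate 2 74 stayed. By the replicate 1 arrays alone the rule chose 92 probe sets. On the replicate 2 arrays, which had no part in that choice, these had a median ovule minus unpollinated difference of -2.66, the lowest at -5.18 and all below 0, with the median of all probe sets at 0.01, and 43 met the whole rule again. Chosen on replicate 2, 89 probe sets had a median of -2.40 on the replicate 1 arrays, the lowest at -4.37 and the highest at -1.09, with the median of all probe sets at 0.07, and 43 again met it. The low ovule signal recurred in arrays not used to choose, and fewer than 1 in 2 of the chosen probe sets met every limit again. AT1G01320 was the 1 member gene with a second probe set. This averaged 105.3 in ovules and 127.8 in unpollinated pistils (log2 -0.24), within the background level in both. It did not repeat the difference of the member probe set, which averaged 231.6 in ovules and 1004 in unpollinated pistils. The reason for this disagreement was not tested.

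**Figure D5:**
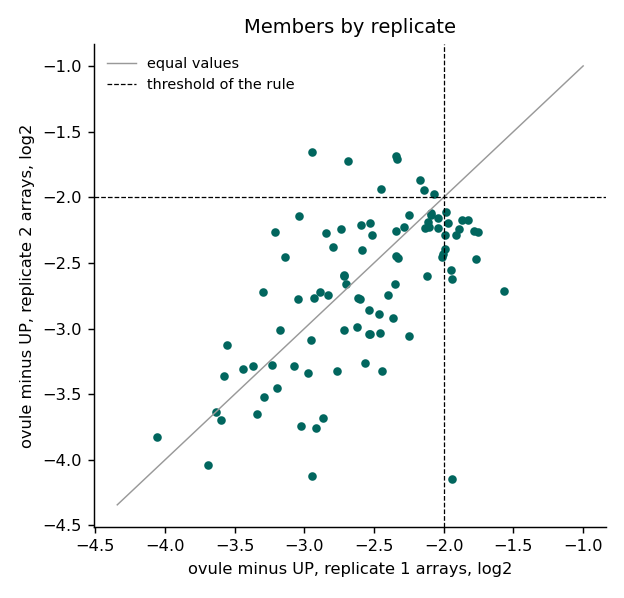
Ovule minus unpollinated pistil log2 difference of each member, from the replicate 1 arrays (x axis) and the replicate 2 arrays (y axis); the grey line marks equal values and the dashed lines the limit of -2. Of the 92 members 69 lie at -2 or less by both, and the other 23 lie above it by 1 of them, at most at -1.57.

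At the limits the choice was a matter of small differences. AT1G32520 lay at the ovule limit itself to 2 decimals, AT3G14520 and AT1G01320 just inside it at -2.01, and AT2G40480, AT5G43450 and AT4G24350 just outside it, at -1.96 each. At 0.5 HAP AT3G21770, at 0.69, and AT1G03820, at -0.69, were just inside, and AT2G41090, at 0.73, and AT3G28270, at -0.71, just outside. At 3.5 HAP AT3G50280, at 0.58, and AT2G28410, at -0.68, were the nearest inside, and PRA1.F1, at 0.70, and AT1G72900, at -0.77, the nearest outside. At 8 HAP AT3G50280, at 0.70, and CRR42, at -0.69, were just inside, and XTH32, at 0.74, and AT1G35420, at -0.71, just outside. GTR1 and GTR2, glucosinolate transporters with ovule differences of -2.25 and -2.50, were kept out by their values at 0.5 HAP alone, 0.79 and 0.85.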

How the data were processed

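Transcripts were measured on 1-colour arrays of the Affymetrix type, by their probe set names, after 2 rounds of cRNA amplification. The authors deposited 1 linear intensity per probe set and array, and MAS5 is named in the submitters' processing notes; scaling is not given in the sources used here, and the values were used as deposited. Control probe sets were left out, leaving 22745. Gene names came from the platform annotation and the TAIR10.1 gene table, which matched 13366 probe sets to 1 nuclear gene. Values were tested as log2(intensity + 16) with limma 3.58.1 in R 4.3.3 (5 groups, intensity trend, empirical Bayes). P-values were Benjamini-Hochberg adjusted over all 22745 probe sets, with calls at 0.05. The fit was also run on simulated independent noise with added changes, which tests the procedure and not the calls given here. Tables and figures used Python 3.11.15, pandas 2.3.3 and matplotlib 3.10.9.

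Members, lists and tests were chosen with earlier results of these data known. Genes were named by rule: the 12 members lowest in ovules and the 6 steadiest (both with unpollinated means above the array median), the 8 brightest, the 4 widest called rises and falls per step and those nearest each limit. Members described by class, AT1G67870 and genes of the lists were picked after their values were seen, and the classes were assigned by hand from known roles. Replicates are pools of many plants, so p-values measure the spread between pools, and 2 arrays per group limit the precision. Other pseudocounts, quantile normalization, a filter on dim probe sets, a replicate block, other fits and leaving out each array were tried. Sequences and promoters were not analysed here.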

Additional observations from a re-analysis of the deposited data

How the results depend on the processing

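The number of members, 92, was 115 with 1 added before the logarithm in place of 16 (87 shared) and 71 with 64 (62 shared), 78 after quantile normalization, 89 without the dimmest 40% of probe sets, and 79 to 100 without any 1 array. The members called in the step from 0.5 to 3.5 HAP, 21, were 4 to 33 without any 1 array and 17 with the replicate number as a block. Those called from 3.5 to 8 HAP, 42, were 16 to 49 and 39 with the block. With 1 array left in a group, that array is assumed to vary like the other groups. Quantile normalization moved the share of rises among the calls of the first step to 68.0%, against 57.1%. Over all probe sets it turned the split of that step to 1585 higher and 1704 lower, against 1181 and 2047. In the second step it turned the split over all probe sets to 3588 higher and 3518 lower, against 4310 and 2824, with a median of -0.003, against 0.05. Of the members 8 were then called higher and 34 lower in the second step, with a median of -0.21. Under the alternatives that can move it (pseudocount, quantile normalization, 1 ovule or unpollinated array left out), the ovule difference of the named members lay between -6.13 and -1.48, and 230 of 266 values were within 1 SD of the value given; the choice of members fixes its sign. Replicate numbers did not pair the arrays: over 10 pairs of groups the correlation of the differences between replicates lay between -0.32 and 0.11, and in 1 it was over 0.1. Probe sets near the background level are limited by signal, and for 46 members the ovule level is only a bound.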
